A study of Mus musculus with 14 samples.

Results

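The 10 genes described here were grouped as signature genes of disease-associated microglia: Trem2, Tyrobp, Axl, Itgax, Cd9, Gpnmb, Spp1, Lpl, Cst7 and Aif1. Aif1 among them is a general marker of microglia and macrophages. The genes were found in the count table by gene symbol, and all 10 matched once each among the 55359 deposited entries that carry an Ensembl gene. RNA was sequenced from mouse cerebral cortex of both hemispheres after cerebral venous sinus thrombosis (CVST), a clot in the large veins that drain the brain. The groups were 5 samples at 7 d after CVST (CVST-7d), 5 samples at 2 d after CVST (CVST-2d) and 4 sham samples, each carrying its group name and a replicate number in the labels. All were housed in a pathogen-free facility, and the labels give neither strain, sex and age of the mice nor how the thrombosis was induced or when the sham samples were collected. They do not say outright that each sample is a separate animal, so p-values measure the spread between these samples.

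Microglia are the resident macrophages of the brain. In damaged, demyelinated or amyloid-bearing tissue they enter a phagocytic state in which genes of lipid handling, lysosomes and adhesion are turned up, and part of that switch needs the lipid-sensing receptor Trem2 and its signalling adaptor Tyrobp. Several of the genes are also made by other cells: Spp1 by infiltrating macrophages and fibroblasts, Gpnmb and Itgax by peripheral myeloid cells, Cd9 and Lpl by glia and neurons, and Axl by endothelium and astrocytes.

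Gene counts summed to 14.7 M to 20.8 M per sample. The neuronal markers of the cortex were abundant throughout, with Slc17a7, the vesicular glutamate transporter of excitatory neurons, at 1180 ± 240 CPM (counts scaled to a common library size with TMM factors) in CVST-7d, 1332 ± 175 in CVST-2d and 1176 ± 143 in sham (SD, n = 5, 5 and 4). A pair of CVST libraries stood apart from their groups, and sham 1 from the other sham samples. On the first principal component, which held 33.1% of the variance, sham 2 to 4 lay at -48.2 to -47.7 and sham 1 at -27.3. CVST-7d 2 lay at -26.9, CVST-2d 5 at -26.7 and the other CVST samples at 1.5 to 49.1. Oligodendrocyte markers summed to 7748 CPM in sham 1 and to 3074 to 3892 in sham 2 to 4. The main counts are given with and without CVST-7d 2 and CVST-2d 5. They were also the lowest of their groups for 10 and 9 of the 10 genes. Values without them, here and for single genes, therefore lean towards a difference from sham.

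For 8 of the 10 genes the RefSeq tables of build GRCm38.p6 held the window from 250 bases before to 50 bases after the annotated start, Spp1 having a window at each of 2 starts. Tyrobp and Lpl had no entry. The windows were searched on both strands for AGGAAGT, a form of the PU.1 (Spi1) site of myeloid genes, and for TCACGTG and TCATGTG, sites of the MITF and TFE family. They were also searched for TGANTCA (N any base), a looser form of the AP-1 site TGACTCA or TGAGTCA. The AP-1 letters were found in 4 of the 8 genes, against 7.81% of all 32851 windows, and AGGAAGT in 2 of the 8, against 9.35%. TCACGTG and TCATGTG were in none of these windows and in 3.77% of all windows each. A match is a string of letters and not a measured binding site. The 5 windows that hold a match are shown because 4 of them belong to the genes with the largest differences at 7 d and the last to Trem2, the receptor the signature is tied to. They are written 5′ to 3′, all on the + strand, with the matched letters in capitals: Gpnmb at chr6:49036268-49036567, Cst7 at chr2:150570165-150570464, Itgax at chr7:128129300-128129599, Spp1 at chr5:104434861-104435160 and Trem2 at chr17:48346151-48346450.
Gpnmb: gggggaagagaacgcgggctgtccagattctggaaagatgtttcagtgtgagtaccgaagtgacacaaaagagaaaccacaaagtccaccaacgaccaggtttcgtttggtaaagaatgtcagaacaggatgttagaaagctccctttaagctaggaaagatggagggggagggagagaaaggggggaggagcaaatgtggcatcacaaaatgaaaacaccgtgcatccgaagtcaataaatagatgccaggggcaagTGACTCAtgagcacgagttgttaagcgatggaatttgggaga
Cst7: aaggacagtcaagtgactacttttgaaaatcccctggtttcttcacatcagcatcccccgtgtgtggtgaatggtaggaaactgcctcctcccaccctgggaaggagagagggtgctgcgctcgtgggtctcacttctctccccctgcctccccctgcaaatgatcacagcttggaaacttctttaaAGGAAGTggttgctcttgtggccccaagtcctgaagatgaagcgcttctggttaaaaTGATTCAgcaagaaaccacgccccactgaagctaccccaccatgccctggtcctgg
Itgax: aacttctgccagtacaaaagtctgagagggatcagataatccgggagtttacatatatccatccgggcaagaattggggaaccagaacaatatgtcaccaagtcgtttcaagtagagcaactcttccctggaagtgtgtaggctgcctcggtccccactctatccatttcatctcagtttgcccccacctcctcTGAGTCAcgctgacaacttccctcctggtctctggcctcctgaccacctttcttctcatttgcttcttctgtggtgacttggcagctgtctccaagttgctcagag
Spp1: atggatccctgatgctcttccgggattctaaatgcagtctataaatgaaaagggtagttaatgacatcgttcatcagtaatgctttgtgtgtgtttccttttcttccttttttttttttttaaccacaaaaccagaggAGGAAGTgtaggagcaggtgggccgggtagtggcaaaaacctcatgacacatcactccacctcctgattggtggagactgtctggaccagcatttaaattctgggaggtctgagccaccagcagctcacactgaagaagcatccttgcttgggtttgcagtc
Trem2: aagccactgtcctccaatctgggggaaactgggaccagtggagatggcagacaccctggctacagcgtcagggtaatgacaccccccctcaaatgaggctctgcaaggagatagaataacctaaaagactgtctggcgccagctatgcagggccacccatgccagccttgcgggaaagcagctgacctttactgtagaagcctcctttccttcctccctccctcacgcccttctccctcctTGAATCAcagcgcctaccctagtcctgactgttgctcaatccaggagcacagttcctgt
The TGANTCA match began 6 bases upstream of the annotated start in Cst7, 9 upstream in Trem2, 56 upstream in Itgax and 8 downstream in Gpnmb. AGGAAGT began 63 bases upstream in Cst7 and 112 upstream in Spp1.

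At 7 d after CVST 9 of the 10 genes were higher than in sham, every one except Lpl (edgeR quasi-likelihood test, Benjamini-Hochberg adjusted over all 16918 genes tested, called at an adjusted p under 0.05). Of all genes tested 3.61% were called higher in that comparison. The calls among the 10 genes were all upward, and 0.833% of all genes were called lower and 4.44% in either direction. The median log2 fold change of the 10 genes was 2.25, against -0.01 over all genes. At 2 d Cd9 and Cst7 were called higher, where 2.98% of all genes were (0.969% lower, 3.95% either way), and the median of the 10 genes was 1.33. Between the times Itgax and Gpnmb were higher at 7 d, where 1.54% of all genes were (1.25% lower, 2.8% either way), with a median of 1.21 and a positive value for each of the 10 genes. The comparisons of 7 d and of 2 d share the 4 sham samples, so they are not independent. All 10 genes passed the filter on low counts. In whole cortex, more cells of a type and more RNA per cell cannot be told apart.

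**Figure D1:**
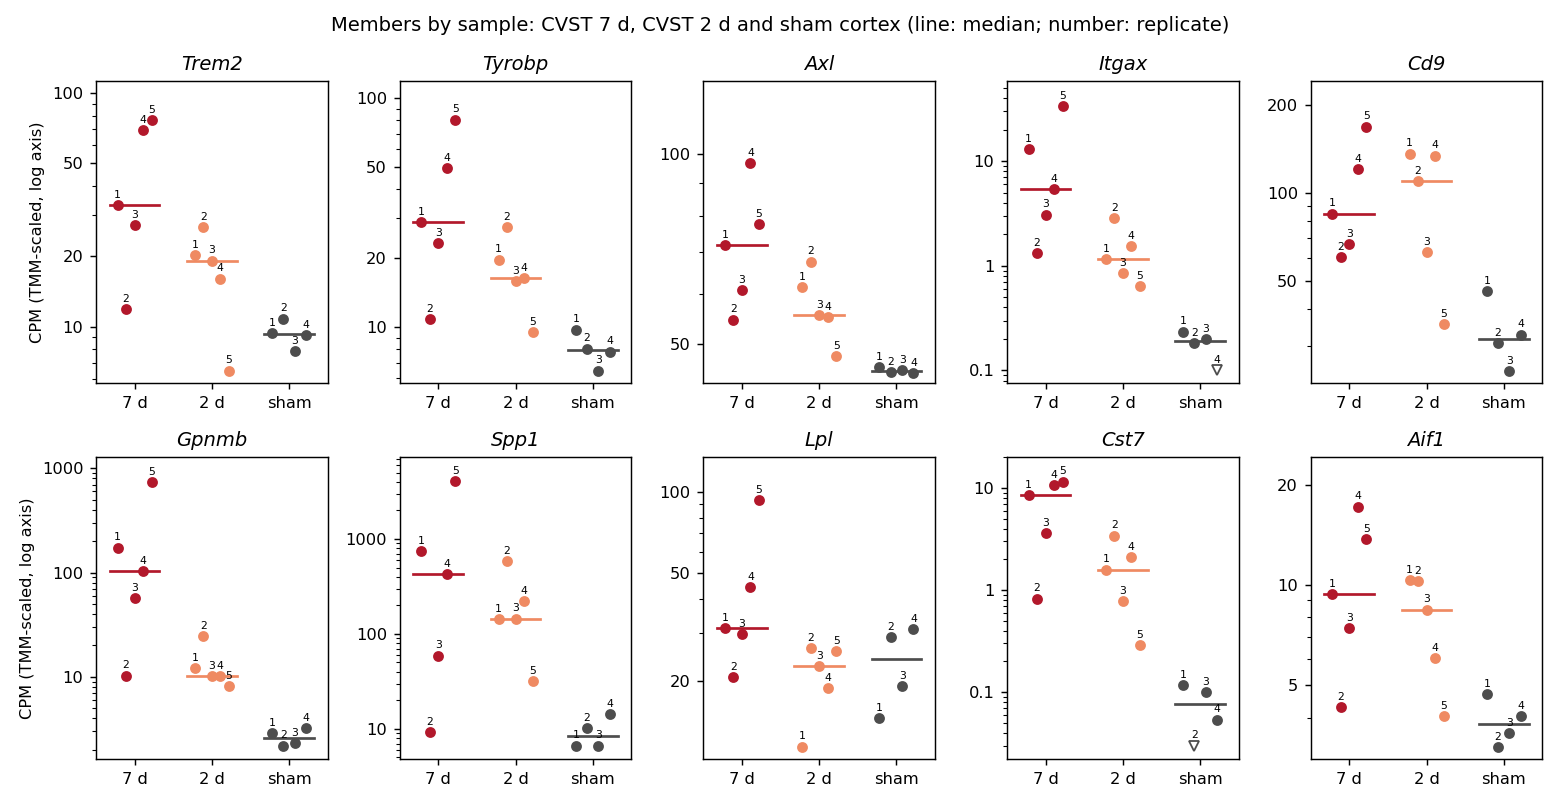
CPM (log axis, 1 panel per gene) of each sample of CVST-7d, CVST-2d and sham, with the replicate number beside the point, a line at the group median and an open triangle where a sample had 0 counts. CVST-7d 2 is the lowest CVST-7d sample in every panel, and the 4 sham points of Axl lie between 45.1 and 46.1 CPM.

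The receptors and their adaptor are described first. Trem2 (ENSMUSG00000023992, chromosome 17), a receptor for lipids and lipoproteins on microglia, measured 33.2, 11.9, 27.3, 69.2 and 76.4 CPM in CVST-7d 1 to 5. It measured 20.3, 26.6, 19.2, 16.1 and 6.48 CPM in CVST-2d 1 to 5, and 9.41, 10.8, 7.86 and 9.21 CPM in sham 1 to 4. Every CVST-7d sample lay above the sham range, CVST-7d 2 only just, while CVST-2d 5 lay below all sham samples. Trem2 rose at 7 d against sham (log2 fold change 2.23 ± 0.48, SE, adjusted p = 0.0202). The call ended without any 1 of the sham samples (adjusted p = 0.0539 to 0.0821) or without CVST-7d 4 (0.0537). At 2 d the difference was 0.93 ± 0.47 (adjusted p = 0.262), and between 7 d and 2 d it was 1.298 ± 0.424 (adjusted p = 0.105). Without CVST-2d 5 and CVST-7d 2 those differences were 1.15 (adjusted p = 0.0267) and 1.34 (adjusted p = 0.0235).

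Tyrobp (ENSMUSG00000030579, chromosome 7), the membrane adaptor also called DAP12 that carries the Trem2 signal to the kinase Syk, measured 28.8, 10.8, 23.3, 49.7 and 80.6 CPM in CVST-7d 1 to 5. The values were 19.7, 27.3, 15.9, 16.4 and 9.50 CPM in CVST-2d 1 to 5 and 9.76, 8.06, 6.46 and 7.81 CPM in sham 1 to 4. The order of samples was close to that of Trem2, with CVST-7d 2 and CVST-2d 5 lowest in their groups. Tyrobp rose at 7 d by 2.27 ± 0.47 (SE, adjusted p = 0.0175). Without sham 2, sham 3 or sham 4 it did not pass (adjusted p = 0.06 to 0.0747). At 2 d it differed from sham by 1.15 ± 0.45 (adjusted p = 0.16), or by 1.32 without CVST-2d 5 and CVST-7d 2 (adjusted p = 0.0253).

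Axl (ENSMUSG00000002602, chromosome 7), a receptor tyrosine kinase that binds dying cells through Gas6, showed the smallest difference of the called genes and the tightest sham group. It measured 71.8, 54.7, 60.9, 96.7 and 77.6 CPM in CVST-7d 1 to 5, against 61.7, 67.6, 55.6, 55.3 and 47.9 CPM in CVST-2d 1 to 5 and 46.1, 45.2, 45.5 and 45.1 CPM in sham 1 to 4. All 10 CVST samples lay above the sham range, whose coefficient of variation was 0.956%. The rise at 7 d was 0.67 ± 0.14 (SE, adjusted p = 0.0183), and it did not pass without sham 2, sham 3 or sham 4 (adjusted p = 0.0606 to 0.07). At 2 d the difference was 0.34 ± 0.14 (adjusted p = 0.173), or 0.41 without CVST-2d 5 and CVST-7d 2 (adjusted p = 0.0423).

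Itgax (ENSMUSG00000030789, chromosome 7), the integrin subunit CD11c of dendritic cells and activated microglia, was close to undetected in sham, with 11 counts over the 4 libraries. It measured 13.03, 1.33, 3.09, 5.41 and 33.6 CPM in CVST-7d 1 to 5, against 1.15, 2.86, 0.851, 1.54 and 0.637 CPM in CVST-2d 1 to 5 and 0.235, 0.182, 0.2002 and 0 CPM in sham 1 to 4. None of the 10 CVST samples fell into the sham range. Pooled counts over total counts, without TMM factors, were 80.5 times those of sham at 7 d (exact 95% interval 44.8 to 162, counting error only) and 10.1 times at 2 d (5.45 to 20.7). Itgax rose by 6.15 ± 1.05 at 7 d (SE, adjusted p = 0.00918) and stood 2.98 ± 0.73 higher at 7 d than at 2 d (SE, adjusted p = 0.0437). CVST-7d 5 carried much of the size: without it the 7 d mean was 5.72 CPM in place of 11.3, the difference from sham 5.15 (adjusted p = 0.011) and that from 2 d 1.99 (adjusted p = 0.0853). The call between the times also ended without CVST-7d 1 or 4 (adjusted p = 0.075 and 0.0675) and without CVST-2d 1, 3 or 4 (0.0861 to 0.122). Against sham at 2 d Itgax differed by 3.16 ± 1.08 (adjusted p = 0.109).

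Among the membrane proteins, Cd9 (ENSMUSG00000030342, chromosome 6), a tetraspanin that organises membrane complexes, had close means in the CVST groups, 100.3 ± 44.9 CPM in CVST-7d and 95.7 ± 44.9 in CVST-2d, against 33.5 ± 9.04 in sham (SD, n = 5, 5 and 4). It measured 84.9, 60.1, 66.9, 121 and 169 CPM in CVST-7d 1 to 5, against 136, 110, 62.6, 134 and 35.5 CPM in CVST-2d 1 to 5 and 46.0, 30.5, 24.6 and 32.7 CPM in sham 1 to 4. All CVST-7d samples and 4 of 5 CVST-2d samples lay above sham. Cd9 rose by 1.59 ± 0.39 at 7 d (SE, adjusted p = 0.0348) and by 1.52 ± 0.39 at 2 d (SE, adjusted p = 0.0447). Between the times the difference was 0.07 ± 0.35 (adjusted p = 0.938), which changed sign in 5 alternative fits. The 7 d call ended without any 1 sham sample (adjusted p = 0.0514 to 0.12), CVST-7d 4 (0.0838) or CVST-7d 5 (0.0803). The 2 d call held in 1 of 9 such fits, that without CVST-2d 5 (adjusted p = 0.00657), and the others gave 0.0552 to 0.138. In the RefSeq annotation of GRCm38.p6 the noncoding genes Gm28809 and Gm26728 overlap Cd9, with 14 counts each over all samples against 19940 for Cd9. Whether strand was used in counting is not given in the sources used here.

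Gpnmb (ENSMUSG00000029816, chromosome 6), a glycoprotein of phagocytes filled with lipid or debris, showed a larger difference between 7 d and 2 d than any other of the 10 genes. It measured 173, 10.3, 56.7, 104 and 743 CPM in CVST-7d 1 to 5. In CVST-2d 1 to 5 it measured 12.2, 24.5, 10.2, 10.2 and 8.11 CPM, and in sham 1 to 4 it measured 2.88, 2.18, 2.30 and 3.23 CPM. All CVST samples were above sham, and 4 of 5 CVST-7d samples were above all CVST-2d samples, with CVST-7d 2 inside the 2 d range. Gpnmb rose by 6.36 ± 1.05 at 7 d (SE, adjusted p = 0.00894) and was 4.05 ± 0.82 higher at 7 d than at 2 d (SE, adjusted p = 0.0194). Without CVST-7d 5 the 7 d mean was 86.0 CPM in place of 217.5, the difference from sham 5.02 (adjusted p = 0.00566) and that from 2 d 2.71 (adjusted p = 0.0272). The call between the times ended without CVST-2d 1, 3 or 4 (adjusted p = 0.0536 to 0.0662). At 2 d Gpnmb differed from sham by 2.31 ± 0.96 (adjusted p = 0.179), and without CVST-2d 5 and CVST-7d 2 by 2.45 (adjusted p = 0.0514).

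Of the secreted proteins, Spp1 (ENSMUSG00000029304, chromosome 5), which encodes the matrix and cytokine-like protein osteopontin, reached higher CPM than the other 9 genes and spread more within the CVST groups. It measured 746, 9.31, 59.2, 427 and 4108 CPM in CVST-7d 1 to 5. The values were 143, 580, 145, 221 and 31.6 CPM in CVST-2d 1 to 5 and 6.65, 10.2, 6.66 and 14.2 CPM in sham 1 to 4. The highest CVST-7d sample held 441-fold the CPM of the lowest, against 18.4-fold in CVST-2d and 2.13-fold in sham. CVST-7d 2 lay inside the sham range, while every CVST-2d sample lay above it. Spp1 rose by 6.83 ± 1.51 at 7 d (SE, adjusted p = 0.0231). The call ended without any 1 sham sample (adjusted p = 0.0637 to 0.0865), and without CVST-7d 5 the difference was 5.04 (adjusted p = 0.0382), with a 7 d mean of 310.4 CPM in place of 1070.0. At 2 d the difference from sham was 4.57 ± 1.37 (adjusted p = 0.0741), or 4.87 without CVST-2d 5 and CVST-7d 2 (adjusted p = 0.01). The 2 d mean was 224 CPM, or 135 without CVST-2d 2. Between 7 d and 2 d the difference was 2.25 ± 1.09 (adjusted p = 0.256), and it was 0.47 without CVST-7d 5 (adjusted p = 0.802).

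Lpl (ENSMUSG00000015568, chromosome 8), the lipase that frees fatty acids from lipoproteins, was the member without a call in any of the 3 comparisons. It measured 31.2, 20.5, 29.6, 44.2 and 93.2 CPM in CVST-7d 1 to 5, against 11.4, 26.4, 22.7, 18.7 and 25.7 CPM in CVST-2d 1 to 5 and 14.5, 29.0, 19.0 and 30.9 CPM in sham 1 to 4. The 3 groups overlapped, and CVST-7d 1, 4 and 5 were above the sham range. The differences were 0.91 ± 0.39 at 7 d (SE, adjusted p = 0.209), -0.16 ± 0.39 at 2 d (adjusted p = 0.85) and 1.06 ± 0.37 between 7 d and 2 d (adjusted p = 0.119). These p-values do not show that Lpl was the same in the groups.

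Cst7 (ENSMUSG00000068129, chromosome 2), cystatin F, an inhibitor of lysosomal cysteine proteases that acts on cathepsin C, held its 7 d call in all 9 fits with a library left out. It measured 8.57, 0.824, 3.61, 10.7 and 11.5 CPM in CVST-7d 1 to 5, against 1.59, 3.42, 0.786, 2.09 and 0.290 CPM in CVST-2d 1 to 5 and 0.118, 0, 0.1001 and 0.0539 CPM in sham 1 to 4. The sham libraries held 5 counts together, and all 10 CVST samples lay above them. Pooled counts over total counts, without TMM factors, were 108 times those of sham at 7 d (exact 95% interval 46.0 to 334, counting error only) and 26.0 times at 2 d (10.9 to 81.0). Cst7 rose by 6.53 ± 1.00 at 7 d (SE, adjusted p = 0.00568, 0.000543 to 0.0369 with a library left out) and by 4.45 ± 1.03 at 2 d (SE, adjusted p = 0.0319). The 2 d call ended without any 1 of the sham samples (adjusted p = 0.0639 to 0.106) and without CVST-2d 1, 2 or 4 (0.0555 to 0.0723). Between 7 d and 2 d Cst7 differed by 2.09 ± 0.63 (adjusted p = 0.0831), and without CVST-2d 5 and CVST-7d 2 by 2.11 (adjusted p = 0.0176).

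Aif1 (ENSMUSG00000024397, chromosome 17), the cytoplasmic actin-bundling protein Iba1 used as a general stain for microglia and macrophages, measured 9.41, 4.31, 7.45, 17.2 and 13.7 CPM in CVST-7d 1 to 5. It measured 10.4, 10.3, 8.44, 6.05 and 4.05 CPM in CVST-2d 1 to 5 and 4.71, 3.27, 3.603 and 4.04 CPM in sham 1 to 4. CVST-7d 2 and CVST-2d 5 lay inside the sham range and the other 8 CVST samples above it. Aif1 rose by 1.42 ± 0.36 at 7 d (SE, adjusted p = 0.0404), a call that held in 2 of 9 fits with a library left out, those without CVST-7d 2 (adjusted p = 0.00695) and CVST-7d 3 (0.039), the other 7 giving 0.0548 to 0.121. At 2 d it differed by 1.00 ± 0.36 (adjusted p = 0.125), or by 1.18 without CVST-2d 5 and CVST-7d 2 (adjusted p = 0.0122).

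**Figure D2:**
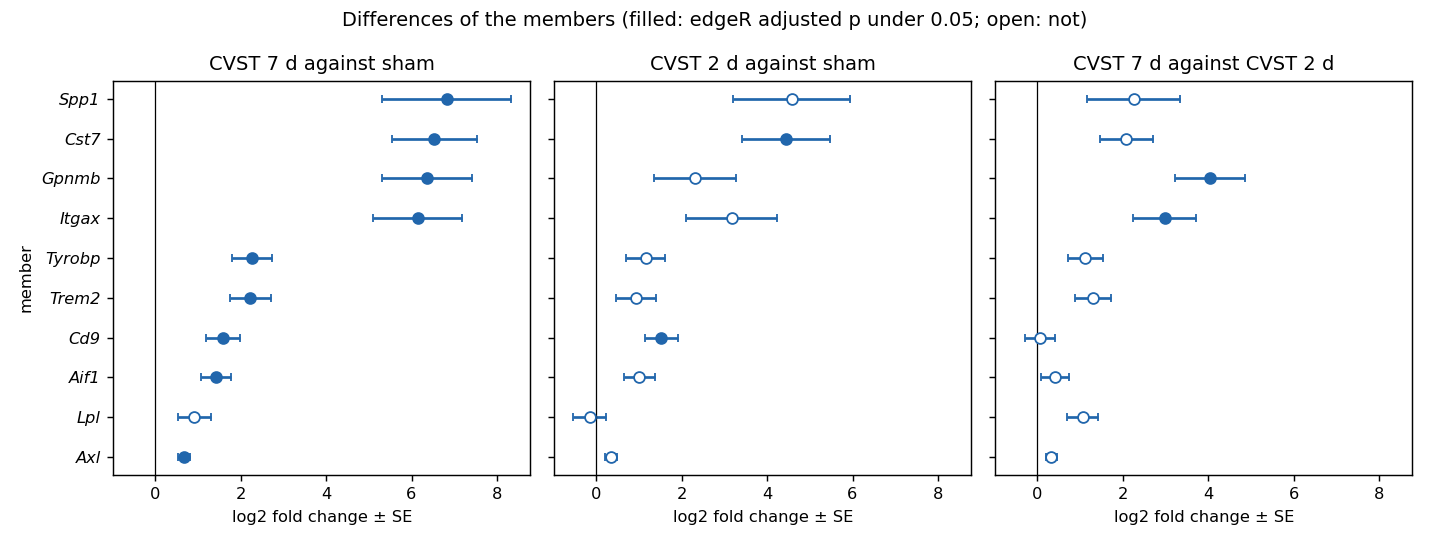
Log2 fold change ± SE (x axis) of each gene in 3 panels, CVST-7d against sham, CVST-2d against sham and CVST-7d against CVST-2d, with filled points for an edgeR adjusted p under 0.05. Spp1, Cst7, Gpnmb and Itgax lie at 6.15 to 6.83 at 7 d, apart from the other 6 genes at 0.67 to 2.27.

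By size of the 7 d difference the genes fell into a group of 4, Spp1, Cst7, Gpnmb and Itgax, with log2 fold changes of 6.15 to 6.83, and the other 6, with 0.67 to 2.27. The same 4 genes had the largest differences at 2 d, at 2.31 to 4.57, and Gpnmb was the lowest of them there. Single samples placed the genes alike. CVST-7d 2 was the lowest CVST-7d sample for 10 of 10 genes, CVST-7d 5 was the highest for 8, CVST-2d 5 was the lowest CVST-2d sample for 9 and CVST-2d 2 was the highest for 8. The number of the 10 genes above the sham range was 10 in CVST-7d 1, 4 and 5, 9 in CVST-7d 3 and 7 in CVST-7d 2, and it was 9 in CVST-2d 1 to 4 and 5 in CVST-2d 5. The share of all genes above the sham range in each sample was not computed, so these counts lack a background and only describe the samples.

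**Figure D3:**
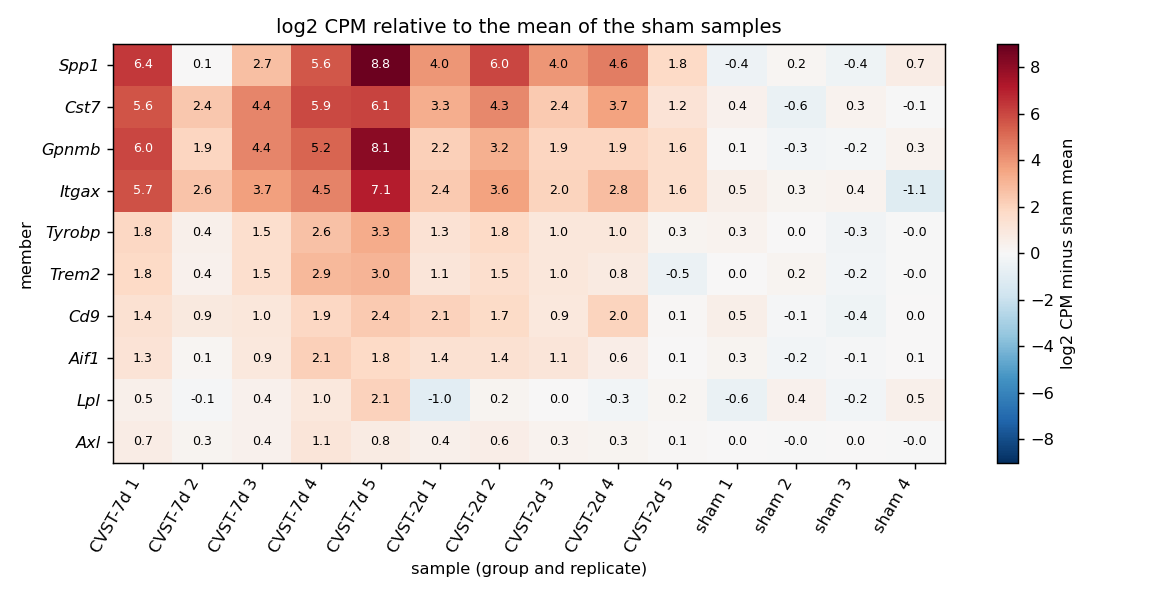
Log2 CPM (colour and printed value) of each gene (rows) in each sample (columns) relative to the sham mean of that gene. Spp1 ranges over the CVST-7d samples between 0.06 in CVST-7d 2 and 8.83 in CVST-7d 5, while Axl stays between 0.07 and 1.09 in all 10 CVST samples.

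Counted without a model, every CVST-7d sample was above every sham sample for 7 of the 10 genes, against 5.80% of all genes tested, and every CVST-2d sample for 5, against 5.65%. Without CVST-7d 2 and CVST-2d 5 these counts were 9 each, against 9.62% and 11.3% of all genes, Lpl being the exception both times. Both libraries were the lowest of their groups for nearly all of the 10 genes, so leaving them out raises such counts. For none of the 10 genes was every CVST-7d sample above every CVST-2d sample (2.28% of all genes), and without the same libraries this held for 5 genes, Trem2, Itgax, Gpnmb, Lpl and Cst7 (6.68% of all genes).

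The number of calls moved with single libraries. At 7 d it was 9 with all samples, 5 without sham 1, 3 without sham 2, 3 or 4, and 8, 9, 9, 6 and 7 without CVST-7d 1 to 5. The share of all genes called higher moved too: it was 1.55%, 0.907%, 0.588% and 0.734% without sham 1 to 4, and 3.18%, 5.29%, 3.45%, 1.45% and 2% without CVST-7d 1 to 5. Itgax, Gpnmb and Cst7 were called in all 9 of these fits. At 2 d, where 2 genes were called with all samples, 4 were called without CVST-2d 5 (Cd9, Spp1, Cst7 and Aif1), where 7.08% of all genes were. The count was 1 without CVST-2d 3 (1.56% of all genes), and in the other 7 fits edgeR called 0 (0.349% to 1.36% of all genes). With all samples 8 of the 10 genes had an unadjusted p under 0.05 at 2 d, as had 21.7% of all genes in either direction, DESeq2 called 4 (6.35% of all genes) and voom 2 (8.39%). Between the times edgeR called 0 of the 10 genes without CVST-2d 1, 3 or 4 (0.581% to 0.807% of all genes), 1 without CVST-7d 1, 4 or 5 (0.648% to 1.13%) and 4 without CVST-7d 2 (1.69%). With all samples 7 of the 10 had an unadjusted p under 0.05 there, as had 20.9% of all genes in either direction, DESeq2 called 4 (3.86% of all genes) and voom 0 (3.46%). With CVST-2d 5 and CVST-7d 2 both left out, an alternative added after seeing the data, 9 genes were called at 7 d, 8 at 2 d and 4 between the times, where 6.79%, 8.17% and 2.97% of all genes were called higher.

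**Figure D4:**
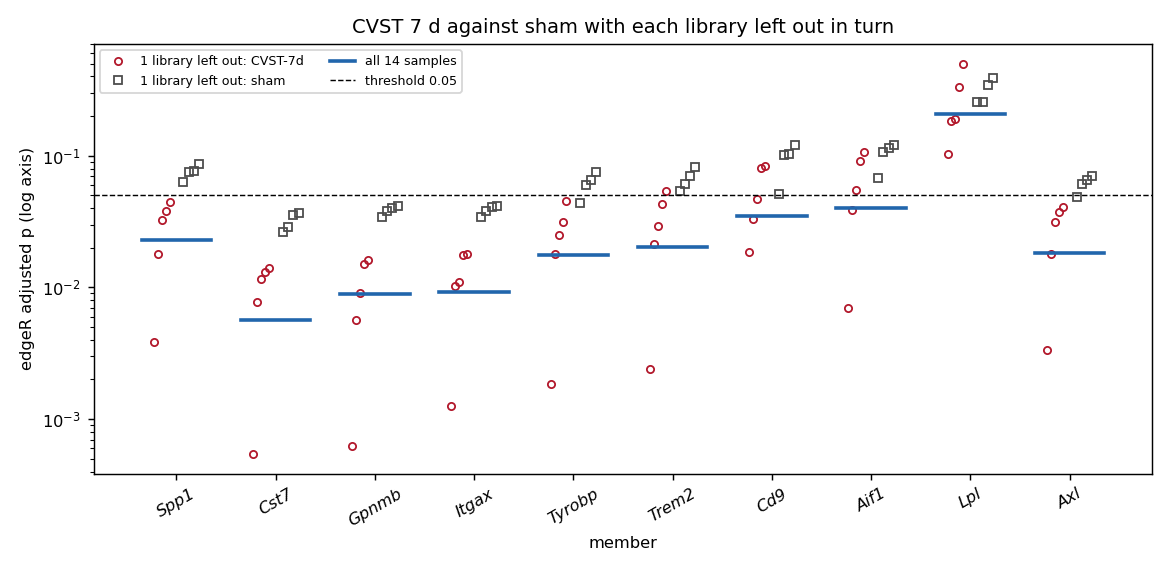
EdgeR adjusted p (log axis) of each gene for CVST-7d against sham with all samples (bar), with a CVST-7d library left out (red circles) and with a sham library left out (grey squares), and the threshold of 0.05 as a dashed line. Itgax, Gpnmb and Cst7 stay under the line throughout, at no more than 0.0419, and the lowest red circle of each gene is the fit without CVST-7d 2.

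Levels were compared between genes on the deposited FPKM scale, which divides by transcript length. In CVST-7d the median FPKM ran in the order Spp1 383, Tyrobp 86.9, Cd9 86.0, Trem2 34.9, Gpnmb 34.2, Axl 19.0, Aif1 18.1, Cst7 11.6, Lpl 7.94 and Itgax 1.92, and the ranges of all neighbours overlapped. In CVST-2d Spp1 (126) and Cd9 (116) led in median FPKM and Cst7 (2.17) and Itgax (0.30) came last, and Tyrobp lay above Trem2, and Aif1 above Lpl, without overlap. In sham the median FPKM of Cd9 was 31.8, that of Tyrobp 23.6 and that of Axl 11.9, and Gpnmb (0.86), Cst7 (0.105) and Itgax (0.055) came last. In sham the ranges of Tyrobp and Axl, Axl and Trem2, Lpl and Gpnmb, and Gpnmb and Cst7 did not overlap. Spp1 was thus ranked 1 of 10 in both CVST groups and 6 in sham, and Gpnmb 5 in CVST-7d and 8 in CVST-2d and sham. For Itgax the ratio of FPKM to CPM varied 9.29-fold across samples, and for Gpnmb 1.98-fold, so their FPKM ranks are less certain than those of the other genes, whose ratio varied at most 1.36-fold.

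The genes were also set against microglial markers of the same samples, as a description with no test. The mean of 15 homeostatic microglial genes, on the log2 scale relative to sham, was 0.64, 0.23, 0.56, 1.29 and 1.09 in CVST-7d 1 to 5, against 0.62, 0.73, 0.35, 0.35 and -0.56 in CVST-2d 1 to 5 and -0.09 to 0.08 in sham. After subtraction of Aif1 on the log2 scale, the median of Gpnmb was 3.46 in CVST-7d, 1.29 in CVST-2d and -0.05 in sham. That of Cst7 was 3.83 in CVST-7d, 1.89 in CVST-2d and 0.00 in sham, and that of Spp1 was 3.44 in CVST-7d, 2.90 in CVST-2d and 0.05 in sham. Trem2 minus Aif1 had medians of 0.62 in CVST-7d, -0.06 in CVST-2d and -0.10 in sham. Its CVST-7d range of 0.21 to 1.23 lay above the CVST-2d range of -0.57 to 0.16, and both overlapped the sham range of -0.25 to 0.46. The medians of Axl minus Aif1 were -0.60 in CVST-7d, -0.81 in CVST-2d and 0.01 in sham, with ranges that overlapped. Aif1 is itself one of the 10 genes, and subtraction of the homeostatic mean in its place gave other medians. They were 1.18 in CVST-7d, 0.50 in CVST-2d and 0.00 in sham for Trem2. On that scale the CVST-7d range of Trem2, 0.12 to 1.94, overlapped its CVST-2d range of 0.06 to 0.78. Both overlapped the sham range of -0.14 to 0.14. For Axl the medians were -0.14 in CVST-7d, -0.07 in CVST-2d and 0.00 in sham, and for Gpnmb 3.96 in CVST-7d, 1.57 in CVST-2d and 0.03 in sham. With Aif1 subtracted, the lowest CVST-7d sample stood at 1.78 for Gpnmb, 2.27 for Cst7 and 2.37 for Itgax, above all sham samples, and at -0.09 for Spp1.

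Among 20 other genes of the disease-associated state, 13 were higher at 7 d (median log2 fold change 1.63). They included Clec7a, the beta-glucan receptor dectin-1 (6.68 ± 0.98, SE, adjusted p = 0.00454), B2m, the light chain of class I antigen-presenting molecules (1.67 ± 0.28, adjusted p = 0.00918), and Lyz2, the lysozyme of myeloid cells (6.38 ± 1.18, adjusted p = 0.0117). Cd68, a lysosomal membrane protein, differed by 2.92 ± 0.55 (adjusted p = 0.0129), and Lilrb4a, an inhibitory receptor, by 4.46 ± 0.87 (adjusted p = 0.0144). At 2 d 3 of the 20 were higher (median 0.86): Lilrb4a (4.41 ± 0.87, adjusted p = 0.0167), the tetraspanin Cd63 (1.42 ± 0.36, adjusted p = 0.0415) and the surface glycoprotein Cd52 (2.49 ± 0.65, adjusted p = 0.0462). Between 7 d and 2 d Clec7a (3.78 ± 0.70, adjusted p = 0.0156), the lipoprotein Apoe (1.69 ± 0.31, adjusted p = 0.0156) and the growth factor Igf1 (1.62 ± 0.38, adjusted p = 0.0368) were higher. Apoe measured 2350 ± 1187 CPM in CVST-7d, 728 ± 206 in CVST-2d and 1014 ± 104 in sham (SD, n = 5, 5 and 4). The 7 d count was 7, 3, 2 and 2 without sham 1 to 4 and 8 without CVST-7d 4. The 2 d count was 8 without CVST-2d 5 and 1 or 0 without any other sample. The count between the times was 6 without CVST-7d 2 and 2 without CVST-7d 4 or CVST-2d 1, 3 or 4. Without CVST-2d 5 and CVST-7d 2 the counts were 17 at 7 d, 15 at 2 d and 6 between the times.

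Of 28 partners of the 10 genes (signalling molecules, ligands, receptors, cofactors and transcription factors), 26 were measured well enough to test, and 11 were higher at 7 d (median log2 fold change 1.04). Downstream of Tyrobp these were Plcg2, the phospholipase of the Trem2 pathway (1.62 ± 0.35, SE, adjusted p = 0.0196), Inpp5d, the phosphatase SHIP1 that opposes it (1.46 ± 0.31, adjusted p = 0.0185), and Syk (1.53 ± 0.37, adjusted p = 0.0321). Itgb2, the integrin chain that pairs with Itgax, differed by 2.80 ± 0.52 (adjusted p = 0.0117). The myeloid transcription factors Spi1 (1.93 ± 0.40, adjusted p = 0.0175) and Irf8 (2.05 ± 0.44, adjusted p = 0.0201) were also higher. Of the ligands of the Axl family, Pros1 rose by 1.18 ± 0.27 (adjusted p = 0.0247) and Gas6 measured 0.28 ± 0.12 (adjusted p = 0.2). The related receptor Mertk measured 0.63 ± 0.25 (adjusted p = 0.165). Apoc2, the cofactor of Lpl, had 0 sham counts and was at least 32-fold higher when the sham libraries together are set to 3 counts, and the list's median was the same with it at that bound. At 2 d 5 partners were higher (median 0.97): Cd44, a receptor of osteopontin (3.80 ± 0.67, adjusted p = 0.0113), Pros1 (1.46 ± 0.27, adjusted p = 0.0137), Ctsc, the protease cathepsin C (2.14 ± 0.47, adjusted p = 0.0263), Spi1 (1.61 ± 0.40, adjusted p = 0.0393) and the actin bundler Lcp1 (1.95 ± 0.51, adjusted p = 0.0482). Between the times edgeR called 0 of 26 (4 at an unadjusted p under 0.05, 1 by DESeq2 and 1 by voom), and the median was 0.11. The 7 d count was 3, 1, 0 and 1 without sham 1 to 4, and 2 and 5 without CVST-7d 4 and 5. The 2 d count was 10 without CVST-2d 5 and 0 to 3 without any other sample. Without CVST-2d 5 and CVST-7d 2 the counts were 17 at 7 d, 15 at 2 d and 1 between the times.

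For each of the 10 genes the 2 genes closest in pattern were found among 15292 others, as those with the smallest root-mean-square difference in log2 CPM relative to sham over the 14 samples. The closest were Ctsd (0.211) and Laptm5 (0.226) for Trem2, and Ctsh (0.193) and Laptm5 (0.2) for Tyrobp. Cmtm6 (0.11) and Mfsd1 (0.133) were closest to Axl, Olfml3 (0.309) and Ptgr1 (0.338) to Cd9, and Lyl1 (0.229) was close to Aif1. Clec7a and Lyz2 recurred: they were at 0.797 and 0.827 from Itgax and at 0.605 and 0.533 from Gpnmb. Clec7a (0.783) and Ly9 (0.873) were closest to Cst7. Spp1 had Lgals3 (0.998) and Lilr4b (1.094) as its closest genes, farther off than those of any other of the 10 genes, and Lpl had Pygl (0.295) and Dhrs3 (0.345). The median difference over all genes searched was 1.48 for Trem2 and 4.25 for Spp1.

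Markers of other cells moved with the 10 genes in part, and their part in the results was not tested. Of 15 homeostatic microglial genes 3 were higher at 7 d, among them Csf1r (1.22 ± 0.27, SE, adjusted p = 0.0216) and Cx3cr1 (1.12 ± 0.30, adjusted p = 0.0477), and the list's median was 0.69. At 2 d 2 were higher, Olfml3 (1.61 ± 0.42, adjusted p = 0.0454) and Fcrls (1.93 ± 0.51, adjusted p = 0.0475), with a median of 0.21. Between the times 2 were higher, Cst3 (0.56 ± 0.13, adjusted p = 0.034) and the purinergic receptor P2ry12 (0.99 ± 0.23, adjusted p = 0.0362). At 2 d both had measured lower than sham without a call, Cst3 at -0.22 ± 0.13 (adjusted p = 0.358) and P2ry12 at -0.54 ± 0.24 (adjusted p = 0.209). Of the 15 genes 11 had a positive difference at 2 d. At an unadjusted p under 0.05, 5 were higher there and 1 lower, P2ry12. Homeostatic sums and ranges follow. The summed level of the 15 homeostatic genes was 1084 to 2202 CPM in CVST-7d, 816 to 1381 in CVST-2d and 924 to 986 in sham, against 184 to 5406 CPM, 170 to 879 and 116 to 147 for the 10 genes in the same groups. Without CVST-2d 5 and CVST-7d 2 the homeostatic counts were 10 at 7 d, 5 at 2 d and 3 between the times. With 1 library left out they ran over 0 to 8 at 7 d, 0 to 4 at 2 d and 0 to 3 between the times, the highest at 7 d without CVST-7d 2 and at the others without CVST-2d 5.

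Of 7 markers of border macrophages 3 were higher at 7 d, F13a1 (3.05 ± 0.70, SE, adjusted p = 0.0259), Mrc1 (2.01 ± 0.48, adjusted p = 0.0317) and Ms4a7 (3.82 ± 0.94, adjusted p = 0.0342), and their summed level was 9.31 to 97.2 CPM in CVST-7d, 16.4 to 43.2 in CVST-2d and 7.15 to 9.12 in sham. Of 8 testable monocyte markers 1 was higher at 7 d, the proteoglycan Vcan (0.94 ± 0.24, adjusted p = 0.042). The monocyte chemokine receptor Ccr2 measured 3.16 ± 2.79 CPM in CVST-7d, 3.12 ± 3.53 in CVST-2d and 0.418 ± 0.0761 in sham (SD, n = 5, 5 and 4), with differences of 2.91 ± 0.88 at 7 d (SE, adjusted p = 0.0761) and 2.89 ± 0.87 at 2 d (adjusted p = 0.0769). Of 6 fibroblast markers the collagens Col1a1 (4.47 ± 1.07, adjusted p = 0.0309), Col3a1 (4.733 ± 1.163, adjusted p = 0.0345) and Col1a2 (3.54 ± 0.93, adjusted p = 0.0458) were higher at 7 d. The summed fibroblast level was 138 to 2957 CPM in CVST-7d, 108 to 215 in CVST-2d and 84.2 to 118 in sham. CVST-7d 5, highest for Spp1 and Gpnmb, held the highest summed level of fibroblast (2957 CPM), monocyte (725 CPM) and border macrophage markers (97.2 CPM), and CVST-7d 2 the lowest of its group in all 3 lists. The monocyte sum was mostly that of the matrix gene Fn1, which many cells make and which reached 631 CPM in CVST-7d, and of Vcan, which reached 56.9 CPM, while Ccr2 reached 7.66 CPM. With any 1 sham sample left out edgeR called 0 markers of border macrophages, monocytes and fibroblasts at 7 d (5, 6 and 5 at an unadjusted p under 0.05 with all samples). Without CVST-7d 4 the counts of the 3 lists, in the same order, were 1, 0 and 2, without CVST-7d 5 they were 1, 0 and 3, and without CVST-7d 2 they were 3, 3 and 4. With CVST-2d 5 and CVST-7d 2 both left out they were 3, 3 and 4 at 7 d and 2, 2 and 0 at 2 d. With all samples edgeR called 0 markers of the 3 lists at 2 d (5, 4 and 0 at an unadjusted p under 0.05, 4, 2 and 0 by DESeq2 and 2, 3 and 0 by voom).

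Of 8 neutrophil markers 3 could be tested. Ly6g, which defines mouse neutrophils, had 0 CPM in CVST-7d, 0.0188 in CVST-2d and 0.0125 in sham as means, and Camp was at 0 CPM in CVST-7d, 0.0313 in CVST-2d and 0.0282 in sham. S100a8, a calcium-binding protein abundant in neutrophils, averaged 0.285 CPM in CVST-7d, 1.39 in CVST-2d and 0.264 in sham, with a difference of 2.37 ± 0.75 at 2 d (SE, adjusted p = 0.088). Its partner S100a9 averaged 0.151 CPM in CVST-7d, 1.82 in CVST-2d and 0.559 in sham, and the chemokine receptor Cxcr2, not tested, 0.11 CPM in CVST-7d, 0.794 in CVST-2d and 0.077 in sham. At 2 d edgeR called 0 of the 3 (2 at an unadjusted p under 0.05, 2 by DESeq2, 3 by voom, and 2 by edgeR without CVST-2d 5 and CVST-7d 2). Of the 3 Csf3r, which microglia also express, was higher at 7 d (1.96 ± 0.38, SE, adjusted p = 0.0141), a call that was lost without sham 2 or sham 3. The summed neutrophil level was 7.48 to 33.8 CPM in CVST-7d, 9.26 to 22.7 in CVST-2d and 4.604 to 6.88 in sham. Most of it was Csf3r, which averaged 17.3 CPM in CVST-7d, 9.2 in CVST-2d and 4.46 in sham. Dendritic cell markers bear on Itgax. They summed to 14.95 to 20.6 CPM in CVST-7d, 16.4 to 19.1 in CVST-2d and 16.5 to 22.6 in sham. Most of that sum was Flt3 and Zbtb46. Flt3 averaged 6.762 CPM in CVST-7d, 5.999 in CVST-2d and 6.859 in sham, and Zbtb46 9.646, 10.44 and 12.77 in that order. The defining genes Xcr1 and Clec9a averaged 0.217 and 0.239 CPM in CVST-7d, 0.183 and 0.148 in CVST-2d and 0.0597 and 0.168 in sham. Ccr7 averaged 0.5008 CPM in CVST-7d, 0.2606 in CVST-2d and 0.02765 in sham, and Itgae 0.5301, 0.2012 and 0.2342. Cd209a, with 0.1503, 0.2544 and 0.2132, was lower at 7 d than in sham. Genes of the list other than Flt3 and Zbtb46 were not tested. Of 7 neuronal markers edgeR called 0 in each of the comparisons (0 at an unadjusted p under 0.05 against sham at 7 d or 2 d, 1 between the times, and 0 by DESeq2 or voom). Astrocyte markers had 2 of 7 higher at 7 d, Gfap (2.76 ± 0.41, adjusted p = 0.00454) and Aqp4 (0.90 ± 0.22, adjusted p = 0.0343), and 2 at 2 d, Gfap (3.07 ± 0.41, adjusted p = 0.00371) and Aldh1l1 (0.79 ± 0.14, adjusted p = 0.0113). Between the times 3 of 7 were higher at 7 d, the gap junction gene Gja1 (0.93 ± 0.17, adjusted p = 0.0145) and the glutamate transporters Slc1a2 (0.74 ± 0.15, adjusted p = 0.0179) and Slc1a3 (0.55 ± 0.13, adjusted p = 0.0433). The same 3 genes measured lower than sham at 2 d, each at an unadjusted p under 0.05 and without an edgeR call. Their differences there were -0.48 ± 0.18 for Gja1, -0.46 ± 0.15 for Slc1a2 and -0.32 ± 0.14 for Slc1a3. The median of the astrocyte list was -0.23 at 2 d and 0.45 at 7 d, and voom called 3 of its genes lower at 2 d. Of 6 endothelial markers, which with the astrocyte markers bear on Axl, the adhesion genes Pecam1 (1.02 ± 0.20, adjusted p = 0.0179) and Cdh5 (0.98 ± 0.23, adjusted p = 0.0338) were higher at 2 d. Pecam1 averaged 27.1 CPM in CVST-7d, 46.4 in CVST-2d and 22.9 in sham, and was lower at 7 d than at 2 d (-0.78 ± 0.19, adjusted p = 0.0429), a call lost without CVST-2d 1 or 3 or any 1 CVST-7d sample. At 7 d against sham edgeR called 0 endothelial markers (1 at an unadjusted p under 0.05, 0 by DESeq2 and 0 by voom). The endothelial call at 2 d was 1 or 0 gene without any 1 sham sample, and the astrocyte call at 7 d was 1 gene.

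**Figure D5:**
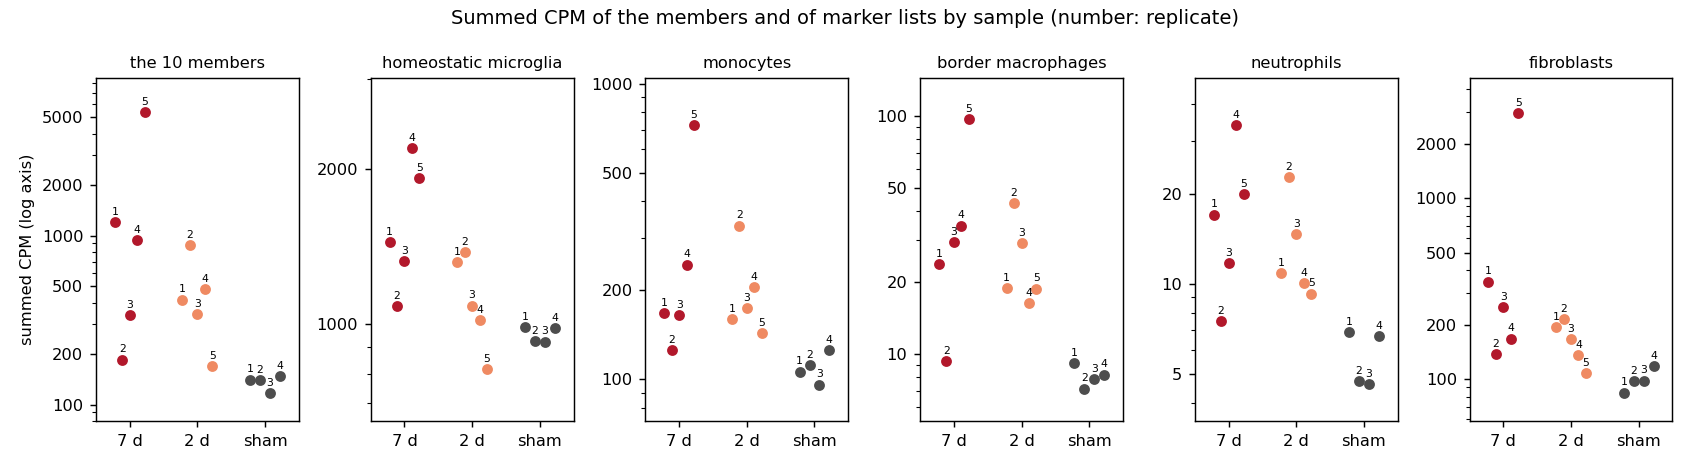
Summed CPM (log axis) of the 10 genes and of 5 marker lists in each sample of CVST-7d, CVST-2d and sham, with the replicate number beside the point. CVST-7d 5 stands highest for the 10 genes (5406 CPM), monocytes (725 CPM), border macrophages (97.2 CPM) and fibroblasts (2957 CPM), and CVST-7d 4 for homeostatic microglia (2202 CPM) and neutrophils (33.8 CPM, mostly Csf3r).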

How the data were processed

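Per the labels' protocols, cortex RNA was isolated with Trizol and sequenced from NEBNext Ultra libraries. The authors deposited whole-number read counts per gene and FPKM values (fragments per kilobase, scaled to library size) for 14 samples. Per the submitters' processing notes, fastp, HISAT2 and DESeq2 1.16.1 were used on build mm39. For fastp and HISAT2 no version was given, and the counter, strand use and gene annotation are not given in these sources. An annotation of mm39 was not used here, so promoter windows carry GRCm38.p6 coordinates from RefSeq. Of 55894 entries, 535 without an Ensembl gene (0.203% to 0.278% of the counts of a sample) were left out.

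The deposited counts were fitted for all 14 samples together in edgeR 4.0.16 (R 4.3.3) with group means, TMM factors (0.962 to 1.04) and filterByExpr, which kept 16918 genes. Differences were tested 2-sided by quasi-likelihood, adjusted after Benjamini and Hochberg, and called at an adjusted p under 0.05. The biological coefficient of variation was 0.218, and chi-square per degree of freedom between replicates was at least 7.76, so no library was a repeat of another. Log2 CPM used a prior count of 2. Alternatives used DESeq2 1.42.0 and limma 3.58.1 (voom with sample quality weights, and log2 of FPKM plus 0.1 or 1). The code was tested on simulated data. No molecular identifiers are described, so intervals and floors describe counting error alone. The 10 genes, the gene lists and the tests were chosen with earlier results of these data known. Named beside the 10 genes are up to 5 called genes of a list by adjusted p, defining markers near 0 and, by the rule of smallest difference, the closest genes in pattern. Ccr2, Gas6, Mertk, Syk, Pros1 and Apoc2 at 7 d and the neuronal marker Slc17a7 were named outside that rule for their roles. So were the untested or uncalled S100a8, S100a9, Cxcr2, Fn1, Flt3, Zbtb46, Ccr7, Itgae and Cd209a. A further gene that the rule names is not reported here.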

Additional observations from a re-analysis of the deposited data

Results flagged for a closer look

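In 3 of 30 groups examined (10 genes in 3 groups) a single sample lay far from the rest by Dixon's criterion on CPM. Chance meets it in about 1 in 20 groups of normally distributed values. CPM are skewed and the 10 genes share samples, so that rate need not hold here. Gpnmb was 743 CPM in CVST-7d 5, where the other CVST-7d samples held 10.3 to 173 CPM, a gap of 0.777 of the group's range. Gpnmb was also 24.5 CPM in CVST-2d 2, where the other CVST-2d samples held 8.11 to 12.2 CPM (0.753 of the range). Spp1 was 4108 CPM in CVST-7d 5, where the other CVST-7d samples held 9.31 to 746 CPM (0.82 of the range). On the log2 scale relative to sham the 3 gaps took up less of the range. Gpnmb stood there at 8.1 in CVST-7d 5, against 1.9 to 6.0 in the other CVST-7d samples. It stood at 3.2 in CVST-2d 2, against 1.6 to 2.2 in the other CVST-2d samples. Spp1 stood at 8.8 in CVST-7d 5, against 0.1 to 6.4 in the others.

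The difference between 7 d and 2 d, tested directly, passed for Itgax, with a log2 fold change of 2.98 (adjusted p = 0.0437), and for Gpnmb, with 4.05 (adjusted p = 0.0194). CVST-7d 5 was the highest sample for both, and without it the values were 1.99 (adjusted p = 0.0853) for Itgax and 2.71 (adjusted p = 0.0272) for Gpnmb.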

How the results depend on the processing

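Counts of calls are given for the 10 genes at 7 d, at 2 d and between 7 d and 2 d (9, 2 and 2 with all samples), then for the 20 other genes of the disease-associated state (13, 3 and 3). With DESeq2 size factors in edgeR all 6 counts were within 1.5 times those values. With a library left out they ran over 3 to 9, 0 to 4 and 0 to 4 for the 10 genes and over 2 to 16, 0 to 8 and 2 to 6 for the 20. Without CVST-2d 5 and CVST-7d 2, chosen after seeing the data, they were 9, 8 and 4, and 17, 15 and 6. With only the groups compared the 2 d count was 6 and that between times 0 for the 10 genes, and 11 and 0 for the 20. With the replicate block they were 1, 0 and 0, and 1, 1 and 0. DESeq2 gave 9, 4 and 4, and 16, 10 and 6. Voom gave 5, 2 and 0, and 8, 12 and 1. FPKM plus 0.1 gave 5, 1 and 0, and 9, 1 and 1, FPKM plus 1 gave 2, 0 and 0, and 2, 0 and 0, and FPKM plus 0.1 without a filter 2, 0 and 0, and 2, 1 and 0. With no filter on counts the 20 had 6 at 2 d. The cause was not tested, except that fewer samples entered where libraries were left out. The share of all genes called higher also differed between fits, at 2 d for example 2.98% with all samples and 8.17% without CVST-2d 5 and CVST-7d 2. Counts of different fits cannot be compared without that share, which this paragraph does not give for each fit.

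Same-numbered samples were not more alike than others in their deviations from the group means. These correlated at -0.438 to 0.28 (13 pairs, median -0.045), against -0.327 to 0.342 for other numbers (52 pairs, median -0.0135). With so wide a spread the check cannot exclude that a number stands for a shared batch, and the labels do not say. The block also takes up degrees of freedom, and why it left fewer calls was not tested. Of the single-gene values 447 kept direction and side of the threshold, 103 lost the call, 21 gained it and 9 changed sign. These were Lpl at 2 d (-0.318 to 0.009 with a library left out, positive at 0.008 without sham 4, 0.009 without CVST-2d 1), and between 7 d and 2 d Cd9 (-0.202 to 0.231 with a library left out, negative at -0.046 without CVST-2d 3, -0.138 without CVST-2d 5, -0.008 without CVST-7d 4, -0.202 without CVST-7d 5 and -0.078 by voom), Spp1 (-0.485 by voom) and Aif1 (-0.012 by voom). Cst7 was called at 7 d in all 10 settings and all 9 fits with a library left out. With 11 and 5 sham counts of Itgax and Cst7, their fitted folds depend on the prior count.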
